A study of Mus musculus with 16 samples.

Results

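The genes described here are the chemokines and chemokine receptors of mouse mammary organoids. They were chosen by name alone, as the protein-coding genes whose symbols are Ccl, Cxcl, Ccr or Cxcr with a number, together with Cx3cl1, Cx3cr1 and Ackr1 to Ackr4. The rule found 65 gene identifiers with 59 distinct symbols among the 55487 identifiers of the count table. Cxcl11 matched by name but is annotated as a polymorphic pseudogene, so it is not a member.

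Gene expression was measured by RNA sequencing of 16 samples of organoids, which are small 3-dimensional cultures that keep features of the tissue they came from. Organoids were WT (n = 3, source labelled normal breast) or came from breast tumors mutant for PIK3CA (n = 4), for HER2 (n = 4) or for both genes (n = 5, the double mutant). The series title names the changes as HER2 V777L and PIK3CA H1047R, and places the study in tumor formation and drug resistance. HER2 (mouse gene Erbb2) is a growth factor receptor with tyrosine kinase activity, and PIK3CA supplies the catalytic part of a lipid kinase that acts downstream of such receptors. All 4 genotypes were cultured alike, with B27 supplement, murine EGF and Rspo1-Noggin conditioned medium. The promoter that drove each mutation, the strain, the age of the mice and any sequencing batch are not given in the sources used here. Nothing states that samples of a genotype came from separate mice, so p-values measure the spread between these samples, which may be technical. WT and mutant organoids also differed in their labelled source, normal tissue or tumor. In each comparison with WT, and in the interaction, which also uses WT, the genotype and the source cannot be told apart.

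Chemokines are small secreted proteins that draw leukocytes along a concentration gradient by binding G protein-coupled receptors on them. CC and CXC ligands are named for the spacing of their first cysteines, and Cx3cl1 is held on the cell membrane by a mucin stalk until a protease sheds it. The atypical receptors, Ackr1 to Ackr4, bind ligands without G protein signalling and mostly remove them. In the mammary gland, epithelial cells, fibroblasts and macrophages each make chemokines, and NF-kB is a well-known inducer of several of them.

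Total counts ranged from 45545182 to 64168308 per sample, and 3 counts, taken as the floor of detection, corresponded to 0.0477 to 0.0668 CPM. Levels in CPM, the field's usual depth-scaled counts, were scaled between samples with TMM factors. Of the 65 members, 38 passed the filter on low counts and were tested, 27 did not, and 12 of the latter had 0 counts in every sample. A mean of at least 1 CPM in a genotype was reached by 36 members. The summed level of 5 epithelial markers (Epcam, Krt8, Krt18, Krt19 and Cdh1) was 1935 to 2129 CPM in WT, 2837 to 3462 in PIK3CA mutant, 1685 to 2738 in HER2 mutant and 2594 to 4753 in double mutant organoids, so markers of the labelled tissue were present in every sample.

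Promoter sequences of 5 ligands of the results are shown first, since the ligands called higher in mutants included Cxcl1 and Ccl20, both textbook NF-kB targets, while Cxcl2 and Cxcl3 are close relatives and chromosome 5 neighbours of Cxcl1 that did not pass the test. Cx3cl1, the ligand with the highest level per length in the mutants, is given beside them. Each window of RefSeq (GRCm38.p6) runs from 250 bases before to 50 bases after the annotated start, 5′ to 3′ on the gene's strand, and capitals mark matches to the NF-kB consensus on either strand. The windows lie at chr5:90890995-90891294, chr5:90903649-90903948, chr5:90785851-90786150, chr1:83116516-83116815 and chr8:94771930-94772229, all on the plus strand.
Cxcl1: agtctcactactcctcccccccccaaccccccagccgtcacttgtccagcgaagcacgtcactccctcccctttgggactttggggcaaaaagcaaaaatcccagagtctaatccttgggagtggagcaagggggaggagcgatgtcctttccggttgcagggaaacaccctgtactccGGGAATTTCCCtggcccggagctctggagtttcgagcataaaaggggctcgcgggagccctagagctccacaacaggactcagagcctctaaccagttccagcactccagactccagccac
Cxcl2: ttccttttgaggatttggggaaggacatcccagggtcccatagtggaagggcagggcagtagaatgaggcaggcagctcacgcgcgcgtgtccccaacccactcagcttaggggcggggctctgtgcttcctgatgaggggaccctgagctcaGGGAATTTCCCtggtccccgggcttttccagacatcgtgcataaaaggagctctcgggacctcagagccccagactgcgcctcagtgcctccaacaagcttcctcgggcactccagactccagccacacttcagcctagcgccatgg
Cxcl3: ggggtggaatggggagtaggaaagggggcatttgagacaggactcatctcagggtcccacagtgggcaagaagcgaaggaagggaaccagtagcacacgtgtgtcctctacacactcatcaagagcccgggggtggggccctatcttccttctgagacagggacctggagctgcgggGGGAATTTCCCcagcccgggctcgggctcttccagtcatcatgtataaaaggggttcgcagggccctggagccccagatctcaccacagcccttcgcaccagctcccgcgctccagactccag
Ccl20: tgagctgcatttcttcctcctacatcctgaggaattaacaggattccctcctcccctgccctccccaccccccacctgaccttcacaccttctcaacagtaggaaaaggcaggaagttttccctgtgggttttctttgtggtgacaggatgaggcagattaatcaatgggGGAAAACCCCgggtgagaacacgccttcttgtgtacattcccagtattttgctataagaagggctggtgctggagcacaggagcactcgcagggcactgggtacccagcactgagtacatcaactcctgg
Cx3cl1: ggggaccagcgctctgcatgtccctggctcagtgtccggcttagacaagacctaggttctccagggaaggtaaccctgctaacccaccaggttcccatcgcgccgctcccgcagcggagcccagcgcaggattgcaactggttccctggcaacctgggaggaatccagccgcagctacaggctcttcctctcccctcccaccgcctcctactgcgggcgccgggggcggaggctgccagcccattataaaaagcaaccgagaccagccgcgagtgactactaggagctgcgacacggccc

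The same run of 11 bases lay from -71 to -61 in Cxcl1, from -97 to -87 in Cxcl2 and from -73 to -63 in Cxcl3. That run counts as a pair of overlapping matches on opposite strands. The Ccl20 match, on the minus strand, lay from -80 to -71. The Cx3cl1 window held no match, and held TATAAA from -6 to -1. Promoters were found for 44 of the 59 symbols, and 10 of these held a match to the NF-kB consensus, against 8.46% of all 32851 promoter windows of that length. Among the 10 were Ccl9 and Ccr1, which were called lower than in WT in PIK3CA and double mutants. Ccl25, called higher than in WT in HER2 mutants, held no match. An AP-1 site, spelled TGANTCA and searched on both strands, was in 6 of the 44 member windows and in 7.81% of all windows. A match describes the sequence only.

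Several CC ligands, among them Ccl2, Ccl6, Ccl7 and Ccl8, and the CXC ligand Cxcl12 were lower in every mutant genotype than in WT. Against WT, 10 of the 65 members were lower and 0 higher in PIK3CA mutants, 10 were lower and 2 higher in HER2 mutants, and 14 were lower and 2 higher in double mutants (edgeR quasi-likelihood test, Benjamini-Hochberg adjusted p under 0.05 over 24252 genes). Over all genes tested, the share called was 3.03% lower and 1.49% higher in PIK3CA mutants, 5.63% lower and 4.75% higher in HER2 mutants, and 6.72% lower and 5.03% higher in double mutants. The members called lower were 15.4%, 15.4% and 21.5% of the 65, untested ones included, shares above these backgrounds. Those called higher were 0%, 3.08% and 3.08% of the 65, or 0%, 5.26% and 5.26% of the 38 tested, which in HER2 and double mutants is near the background. The 3 comparisons share the WT samples. Ccr1 was also lower in all 3, but Ccr1, Ccl4 and Ccl12 passed the filter only through the WT samples, so they had to differ to be tested, and they are among the members counted as lower. Without WT replicate 3 the calls numbered 6 in PIK3CA and 3 in HER2 mutants, and in HER2 mutants they numbered 7 without WT replicate 2 and 6 without HER2 mutant replicate 3. Without HER2 mutant replicates 1 and 2 together, chosen after seeing the data, HER2 mutants had 11 lower and 2 higher. Fitted on the compared genotypes alone, 21 members were called in PIK3CA mutants and 1 in HER2 mutants.

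**Figure D1:**
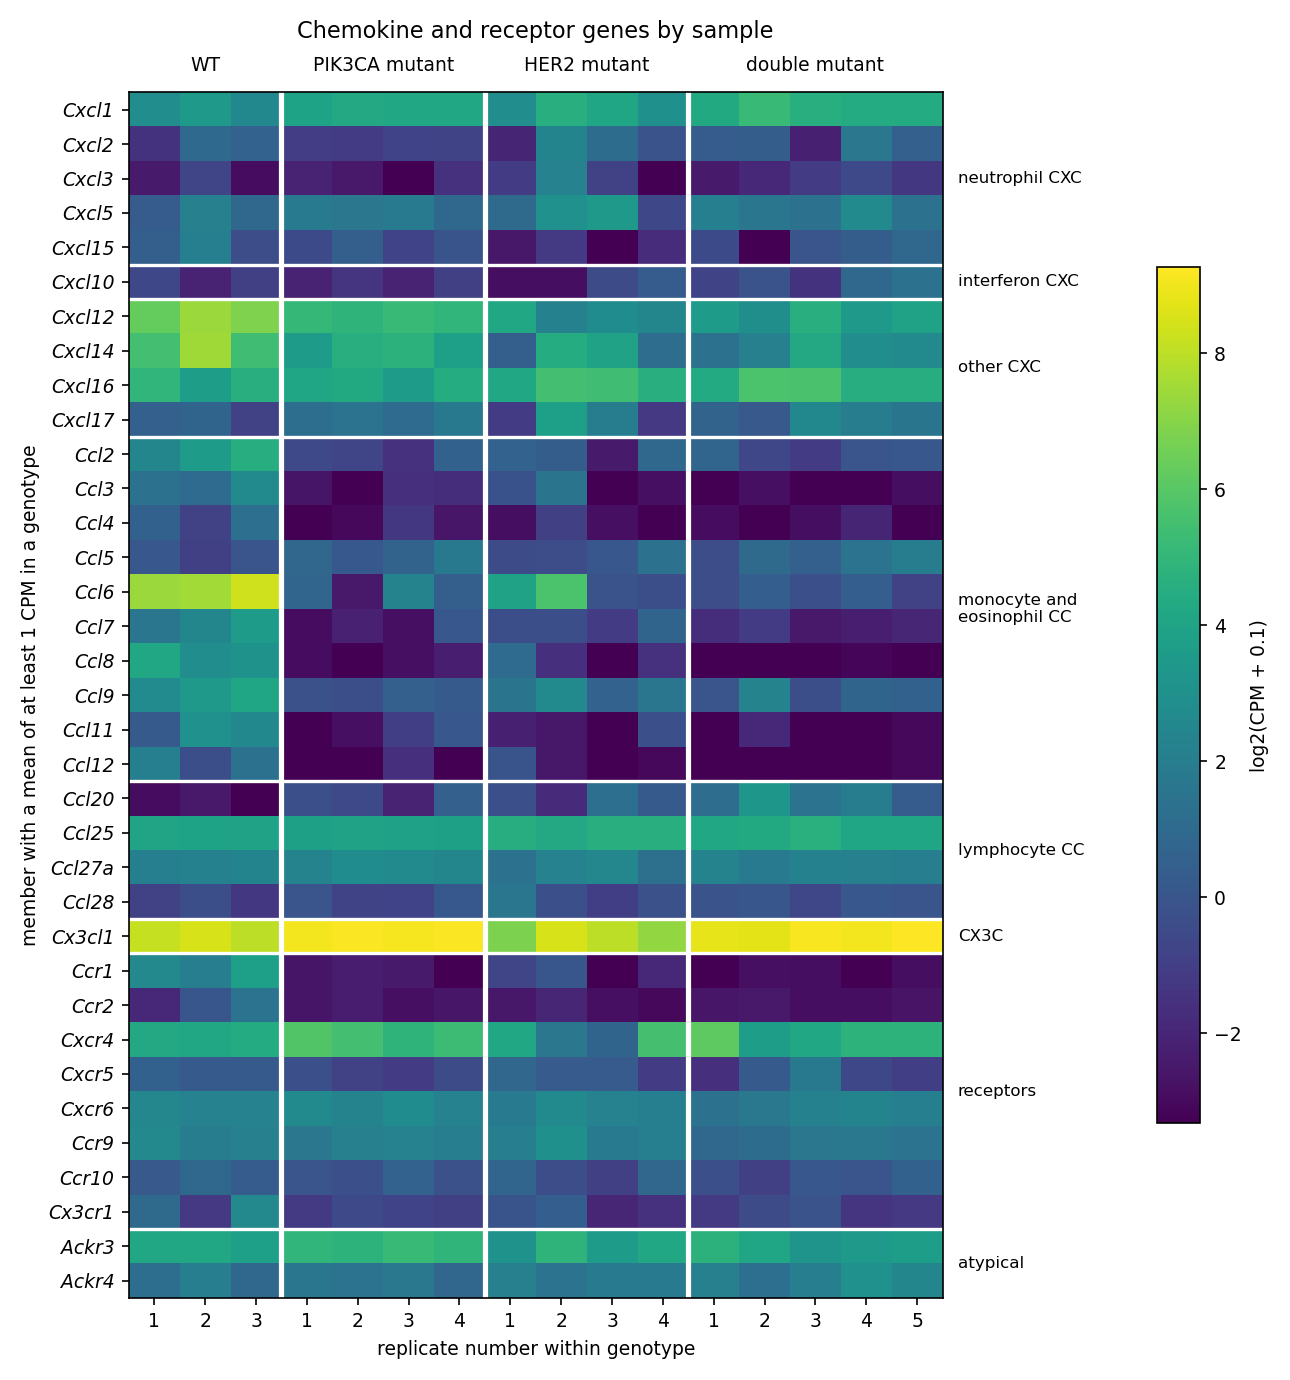
Level of members with a mean of at least 1 CPM in a genotype, as log2(CPM + 0.1), in each of the 16 samples; rows are grouped by role and columns by genotype. Ccl2, Ccl6, Ccl7, Ccl8 and Ccr1 are brightest in the 3 WT samples, and HER2 mutant replicates 1 and 2 are intermediate for Ccl6. Ccl5 overlaps between WT and HER2 or double mutant samples and is above WT in all PIK3CA mutant samples, and Cx3cl1 is bright in all samples.

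Per exonic length, the order of the ligands changed between WT and mutants. The highest level in WT was that of Ccl6, with a mean of 125 RPKM (CPM per kilobase of exon), followed by Cx3cl1 at 76.6 and Cxcl14 at 48.8 RPKM. Cx3cl1 was first in all mutant genotypes, at 144, 56.2 and 131 RPKM in PIK3CA, HER2 and double mutants. The next ligand was Cxcl14 in PIK3CA mutants at 10.6 RPKM, Cxcl16 in HER2 mutants at 10.7 and Cxcl1 in double mutants at 13.2 RPKM. Cx3cl1 made up 17 to 25.7% of the summed ligand RPKM in WT samples, 74 to 77.8% in PIK3CA mutants, 42.4 to 56.9% in HER2 mutants and 63.9 to 78.5% in double mutants. The share of Ccl6 was 26.6 to 47.6% in WT and 0.125 to 0.42% in double mutants, and ranged in HER2 mutants from 0.381 to 14.3%. Among receptors, Cxcr4 was first and Ackr3 second by the mean of every genotype, with Cxcr4 at 11, 23.7, 9.72 and 17.5 RPKM in WT, PIK3CA, HER2 and double mutants. That order did not hold in HER2 mutant replicates 2 and 3, with Cxcr4 at 3.08 and 1.58 CPM and Ackr3 at 28.9 and 12.2 CPM.

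**Figure D2:**
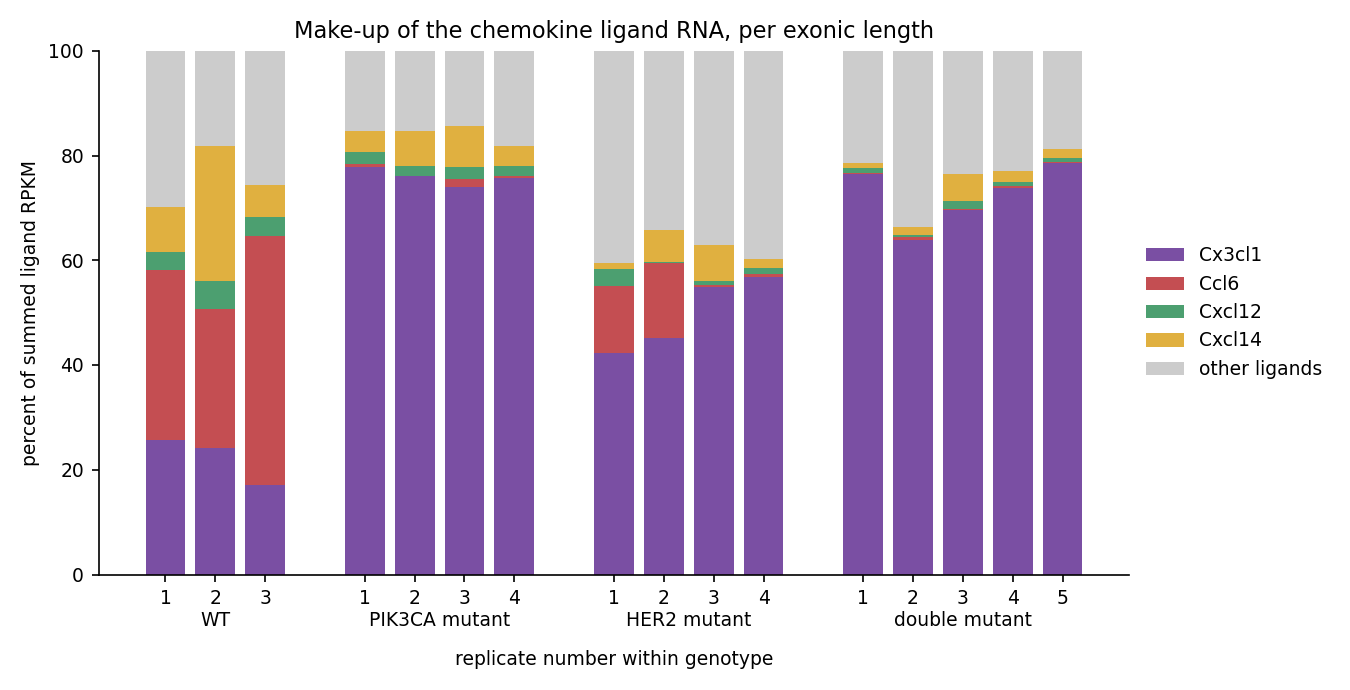
Share of each ligand in the summed RPKM of the ligands with a mean of at least 1 CPM in a genotype, 1 bar per sample, in percent. Ccl6 makes up 26.6 to 47.6% in the WT bars and at most 1.42% in the PIK3CA and double mutant bars, where Cx3cl1 makes up 63.9 to 78.5%.

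The neutrophil-attracting CXC ligands, which act through Cxcr2, sit side by side on chromosome 5 and did not move as a group. Cxcl1 (chr5:90891241-90893115) was at 7.06, 10.7 and 5.77 CPM in WT, 15.6, 19, 18.2 and 17.9 in PIK3CA mutant, 7.02, 24.6, 17.2 and 7.94 in HER2 mutant and 19.6, 37.2, 24.1, 21.4 and 21.1 in double mutant organoids. All PIK3CA and double mutant samples lay above all WT samples, and the HER2 mutants overlapped WT. Cxcl1 was called in double mutants, with a log2 fold change of 1.66 ± 0.37 (SE, edgeR adjusted p = 0.00886), and the call was lost without WT replicate 3 (adjusted p = 0.0684). Against WT the log2 fold change was 1.17 ± 0.38 (adjusted p = 0.0995) in PIK3CA mutants and 0.86 ± 0.37 (adjusted p = 0.161) in HER2 mutants, neither past the threshold. The PIK3CA value passed it with DESeq2 (0.0318), on the compared genotypes alone (0.00659) and with a replicate block (0.0361). Cxcl15, an epithelial ligand first described in lung, was at 1.29, 4.26 and 0.684 CPM in WT, 0.604, 1.3, 0.487 and 0.857 in PIK3CA mutant, 0.0754, 0.347, 0 and 0.205 in HER2 mutant and 0.603, 0, 0.883, 1.22 and 1.75 in double mutant organoids. The HER2 mutants lay below both the WT and the PIK3CA mutant samples, and the call against WT was a log2 fold change of -3.69 ± 1.04 (SE, edgeR adjusted p = 0.0351). It was lost on leaving out any sample but HER2 mutant replicate 2 (adjusted p up to 0.157) and with limma on normalized values (0.068).

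The remaining members of that cluster were expressed but not called in any comparison of the 16-sample fit. Cxcl5 ranged from 1.15 to 4.34 CPM in WT, 1.71 to 3.64 in PIK3CA mutants, 0.573 to 10.7 in HER2 mutants and 2.55 to 6.26 in double mutants. Cxcl2 was at 0.262 to 1.86, 0.351 to 0.5001, 0.151 to 4.99 and 0.118 to 3.03 CPM in the same order. Cxcl3 stayed at or under 0.591 CPM in all samples but one and reached 4.72 CPM in HER2 mutant replicate 2. Cxcl1, Cxcl2 and Cxcl3, whose promoter windows hold the same 11 bases, had different calls: 1 for Cxcl1 and 0 for the other two. The interferon-induced ligand Cxcl10 was at 0.14 to 0.559 CPM in WT, 0.127 to 0.429 in PIK3CA, 0.0377 to 1.17 in HER2 and 0.255 to 2.45 in double mutants and was not called, and 133 of its exonic bases overlap Art3.

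Cxcl12, the ligand of Cxcr4 and Ackr3 and a product of stromal cells, fell in every mutant genotype and was lower in HER2 than in PIK3CA mutants. Cxcl12 (chr6:117168535-117181367) was at 78.8, 168 and 114 CPM in WT, 33.8, 29, 36.4 and 31.3 in PIK3CA mutant, 18.2, 4.51, 6.81 and 5.42 in HER2 mutant and 12.3, 7.53, 23.4, 10.6 and 15.2 in double mutant organoids. No mutant sample reached the lowest WT sample, and no HER2 or double mutant sample reached the lowest PIK3CA mutant sample. Against WT the log2 fold change was -1.88 ± 0.43 (adjusted p = 0.0187) in PIK3CA, -3.78 ± 0.46 (adjusted p = 3.75e-04) in HER2 and -3.12 ± 0.41 (adjusted p = 3.21e-04) in double mutants (SE, edgeR adjusted p). HER2 mutants were also lower than PIK3CA mutants, with a log2 fold change of -1.90 ± 0.41 (SE, edgeR adjusted p = 0.0185). Of 6 fibroblast markers, named below, 0 were lower and 0 higher in HER2 than in PIK3CA mutants, with a median log2 fold change of 0.75. Of 5 basal epithelial markers (Krt5, Krt14, Trp63, Acta2 and Mylk), 3 were lower in the same comparison, Krt5 with a log2 fold change of -3.12 ± 0.55 (SE, edgeR adjusted p = 0.00673), and Mylk had an interaction of 2.45 ± 0.53 (SE, edgeR adjusted p = 0.039). The summed basal level was 411 to 943 CPM in WT, 414 to 1276 in PIK3CA, 126 to 818 in HER2 and 474 to 945 in double mutants, and its part in the Cxcl12 result was not tested. The double mutant was not as low as adding up the changes of both single mutants would give, with a log2 interaction of 2.54 ± 0.58 (SE, edgeR adjusted p = 0.0487). Of the 38 members tested, 6 had an unadjusted p under 0.05 for the interaction by edgeR, against 13.6% of all genes tested. Cxcl12 was the 1 member called for the interaction, a share of 1.54% of the 65 and 2.63% of the 38 tested against 1.06% of all genes tested. That call was lost on leaving out any sample but HER2 mutant replicate 1 or double mutant replicate 2 (adjusted p up to 0.127), and with RLE or upper-quartile scaling (0.0532 and 0.0561). The call in PIK3CA mutants was lost on leaving out WT replicate 2 or 3 or PIK3CA mutant replicate 1, 2 or 4 (adjusted p up to 0.0781).

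Cxcl14, a ligand made by normal epithelia and fibroblasts, was at 44.6, 180.1 and 42.8 CPM in WT, 12.3, 23.9, 27.3 and 13.8 in PIK3CA mutant, 1.3, 22.2, 15.1 and 2.17 in HER2 mutant and 2.55, 4.45, 19.5, 7.06 and 6.26 in double mutant organoids. WT replicate 2 stood far above the other WT samples, and no mutant sample reached the lowest WT sample. The log2 fold change against WT was -3.13 ± 0.87 (adjusted p = 0.0325) in HER2 and -3.48 ± 0.81 (adjusted p = 0.0106) in double mutants (edgeR), both called, and -2.21 ± 0.84 (adjusted p = 0.178) in PIK3CA mutants, called only on the compared genotypes alone (0.0231). Without WT replicate 2 neither call was kept (adjusted p = 0.16 and 0.073), and the HER2 call was also lost without WT replicate 3 or HER2 mutant replicate 3 or 4 (up to 0.0586). WT replicate 2 also had the highest summed level of 6 fibroblast markers (Col1a1, Col1a2, Col3a1, Pdgfra, Dcn and Lum), 1899 CPM against 325 and 1557 CPM in WT replicates 1 and 3. In the mutants that sum was 65.1 to 471 CPM with PIK3CA, 34 to 624 with HER2 and 26.2 to 58 with both mutations. Cxcl14 did not follow that sum in every sample. WT replicate 3 had the lowest Cxcl14 of the WT samples, and HER2 mutant replicate 4 had 2.17 CPM at a sum of 624 CPM. Of the 6 markers, 0, 1 and 5 were lower than in WT in PIK3CA, HER2 and double mutants, and their part in the levels of Cxcl12, Cxcl14 and Ccl11 was not tested. In organoid RNA, fewer cells of a type and less RNA per cell cannot be told apart.

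Cxcl16, a membrane-bound ligand, and its receptor Cxcr6 were both expressed in all genotypes and not called in any comparison. Cxcl16 ranged from 13.3 to 31.1 CPM in WT, 12.2 to 22.4 in PIK3CA, 18.1 to 45.9 in HER2 and 20.6 to 52 in double mutants, although 552 of its exonic bases overlap Zmynd15 on the other strand and reads from both genes cannot be told apart. Cxcl17, a mucosal ligand, was at 0.45 to 1.54 CPM in WT, 2.04 to 3.3 in PIK3CA, 0.328 to 13.9 in HER2 and 1.05 to 5.75 in double mutants, the highest being HER2 mutant replicate 2.

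Macrophage marker genes moved with the CC ligands and are given before them. Of 11 markers (Ptprc, Adgre1, Csf1r, Cd68, Cd14, Fcgr1, C1qa, C1qb, C1qc, Lyz2 and Itgam), 10 were lower in PIK3CA, 7 in HER2 and 10 in double mutants than in WT, and none was higher. Their summed level was 1069 to 3873 CPM in WT, 610.04 to 773 in PIK3CA, 272 to 450.3 in HER2 and 239 to 425 in double mutants, of which Cd14 made up most in every mutant sample but HER2 mutant replicate 1. Adgre1, the gene of F4/80, was at 23.7, 8.62 and 43.7 CPM in WT, 0.0795, 0.062, 0.354 and 0.214 in PIK3CA, 5.36, 1.48, 0.0223 and 0 in HER2 and 0.0177, 0.021, 0, 0.0554 and 0 in double mutants. HER2 mutant replicates 1 and 2 held more of this RNA, and of Ptprc and Lyz2, than the other mutant samples, where Adgre1 was near or at 0. C1qa was at 10.1, 0.116, 0 and 0 CPM in HER2 mutants, so replicate 2 differed from replicate 1 there. T cell, B cell and endothelial markers summed to at most 3.47, 0.918 and 4.82 CPM in any sample, and 5 neutrophil markers to at most 20.9 CPM, most of it S100a8. The part of macrophage RNA in the results on Ccl2, Ccl3, Ccl4, Ccl6, Ccl7, Ccl8, Ccl9, Ccl12, Ccr1 and Cx3cr1 was not tested.

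Of 13 members listed as monocyte- or eosinophil-attracting CC ligands, 10 were tested. Of these, 7 were lower in PIK3CA, 5 in HER2 and 9 in double mutants than in WT, and 0 were higher. Over all genes tested, the share called lower was 3.03%, 5.63% and 6.72%. Ccl12 is among those counted in PIK3CA and double mutants and Ccl4 in double mutants, and both passed the filter only through the WT samples. Ccl6 (chr11:83587882-83593087), a Ccr1 ligand made by myeloid cells, was at 164, 182 and 328 CPM in WT, 1.61, 0.0826, 4.87 and 1.3 in PIK3CA mutant, 15.2, 51.9, 0.823 and 0.716 in HER2 mutant and 0.674, 1.28, 0.746, 1.26 and 0.447 in double mutant organoids. All mutant samples lay below all WT samples, and HER2 mutant replicates 1 and 2 lay above the other mutant samples. The log2 fold change against WT was -6.85 ± 1.30 (adjusted p = 0.0059) in PIK3CA, -3.71 ± 1.13 (adjusted p = 0.0478) in HER2 and -7.99 ± 1.25 (adjusted p = 7.70e-04) in double mutants (SE, edgeR adjusted p). Double mutants were also lower than HER2 mutants, with a log2 fold change of -4.28 ± 1.07 (SE, edgeR adjusted p = 0.0468). The HER2 call against WT was lost with upper-quartile scaling (adjusted p = 0.0535) and on leaving out any sample but HER2 mutant replicate 2 (up to 0.159).

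Ccl9, the neighbour of Ccl6 and also a Ccr1 ligand, was at 6.7, 10.9 and 17.6 CPM in WT, 0.763, 0.702, 1.37 and 1.07 in PIK3CA mutant, 2.73, 6.25, 1.45 and 2.97 in HER2 mutant and 0.904, 4.78, 0.707, 1.59 and 1.4 in double mutant organoids. The samples of all mutants were below those of WT, and the calls were -3.59 ± 0.62 (adjusted p = 0.00314) in PIK3CA and -2.65 ± 0.56 (adjusted p = 0.00568) in double mutants, with -1.81 ± 0.59 (adjusted p = 0.0613) in HER2 mutants, which passed with DESeq2 (0.0188), with limma (0.0461) and without HER2 mutant replicate 2 (0.0267). Ccl3 and Ccl4 are ligands that activated macrophages make. Ccl3 was at 2.6, 2.001 and 6.16 CPM in WT, 0.0636, 0, 0.221 and 0.214 in PIK3CA mutant, 0.811, 2.76, 0 and 0.0409 in HER2 mutant and 0, 0.042, 0, 0 and 0.0389 in double mutant organoids. HER2 mutant replicate 2 reached the WT range, and the other mutant samples did not. Ccl3 was called in PIK3CA (-4.83 ± 1.25, adjusted p = 0.0371) and double mutants (-7.65 ± 1.41, adjusted p = 0.00243), and the first call was lost on leaving out any sample but WT replicate 2 (adjusted p up to 0.174). Ccl4 was at 1.42, 0.44 and 2.29 CPM in WT, 0, 0.0207, 0.31 and 0.0714 in PIK3CA mutant, 0.0377, 0.424, 0.0445 and 0 in HER2 mutant and 0.0355, 0, 0.0393, 0.148 and 0 in double mutant organoids. It was called in double mutants, at -4.86 ± 1.18 (adjusted p = 0.0142), but not without WT replicate 3 (0.0846).

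Ccl2, Ccl7 and Ccl12 are the ligands of Ccr2 that draw monocytes out of the blood. Ccl2 (chr11:82035571-82037453) was at 5.42, 12.2 and 22.5 CPM in WT, 0.588, 0.516, 0.244 and 1.41 in PIK3CA mutant, 1.45, 1.2, 0.089 and 1.72 in HER2 mutant and 1.6, 0.545, 0.353, 0.887 and 0.972 in double mutant organoids. No mutant sample reached the lowest WT sample, and the mutants overlapped each other. The log2 fold change of Ccl2 was -4.27 ± 0.77 (adjusted p = 0.00428) in PIK3CA, -3.58 ± 0.75 (adjusted p = 0.00818) in HER2 and -3.94 ± 0.70 (adjusted p = 0.00188) in double mutants (± SE, edgeR), and the HER2 call was lost without WT replicate 3 (0.0527). Ccl7 was at 2.97, 5.36 and 12.5 CPM in WT, 0.0318, 0.124, 0.0443 and 0.965 in PIK3CA mutant, 0.717, 0.713, 0.356 and 1.56 in HER2 mutant and 0.213, 0.378, 0.0785, 0.111 and 0.156 in double mutant organoids. Its samples showed the same separation from WT, with log2 fold changes of -4.55 ± 0.91 (adjusted p = 0.00767), -3.05 ± 0.84 (adjusted p = 0.032) and -5.20 ± 0.86 (adjusted p = 0.00113) in PIK3CA, HER2 and double mutants. Without WT replicate 3 the PIK3CA call was lost (0.0568), and the HER2 call was lost without WT replicate 2 or 3 or HER2 mutant replicate 1, 2 or 3 (up to 0.183).

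Ccl12 was at 4.16, 0.7004 and 2.55 CPM in WT, 0, 0, 0.221 and 0 in PIK3CA mutant, 0.849, 0.0771, 0 and 0.0205 in HER2 mutant and 0, 0, 0, 0 and 0.0194 in double mutant organoids. The 5 double mutant samples held 1 count in total against 426 in the 3 WT samples, a ratio of 701 in the pooled counts with a 95% interval of 125 to 27746 that covers counting error only. Ccl12 was called in PIK3CA mutants at -5.55 ± 1.36 (adjusted p = 0.0268), a call lost with DESeq2 (0.136) and on leaving out WT replicate 1 or 3 or PIK3CA mutant replicate 1, 2 or 4 (up to 0.109). Ccl8, which in the mouse acts mainly through Ccr8, was at 18.7, 7.004 and 8.83 CPM in WT, 0.0318, 0, 0.0443 and 0.107 in PIK3CA mutant, 1.98, 0.231, 0 and 0.246 in HER2 mutant and 0, 0, 0, 0.0185 and 0 in double mutant organoids. The double mutants again held 1 count, against 1948 in WT, a pooled ratio of 3205 (interval 575 to 126646). In PIK3CA and HER2 mutants the log2 fold change was -7.87 ± 1.16 (adjusted p = 0.00133) and -4.21 ± 0.93 (adjusted p = 0.0107), and both calls held in each of the 7 fits that left out 1 sample.

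Ccl11, eotaxin, draws eosinophils through Ccr3 and is made by fibroblasts. Ccl11 was at 1.08, 8.22 and 5.69 CPM in WT, 0, 0.0413, 0.399 and 0.965 in PIK3CA mutant, 0.113, 0.0771, 0 and 0.737 in HER2 mutant and 0, 0.168, 0, 0 and 0.0194 in double mutant organoids. Among WT samples it was lowest in replicate 1 and highest in replicate 2, as was the fibroblast marker sum. It was called in HER2 (-4.42 ± 1.30, adjusted p = 0.0416) and double mutants (-7.05 ± 1.42, adjusted p = 0.00434), but the HER2 call was lost on leaving out any sample but HER2 mutant replicate 4 (adjusted p up to 0.12) and with DESeq2 (0.0935). Ccl5, a ligand made by T cells among others that sits in the same gene cluster, was not called in any comparison. It ranged from 0.42 to 0.961 CPM in WT, 0.992 to 3.3 in PIK3CA, 0.622 to 2.58 in HER2 and 0.674 to 3.83 in double mutants, with a log2 fold change of 1.46 ± 0.60 (adjusted p = 0.129) in double mutants that was not called.

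By position, 11 members lie between 82035571 and 83664683 on chromosome 11, in the order Ccl2, Ccl7, Ccl11, Ccl12, Ccl8, Ccl1, Ccl5, Ccl9, Ccl6, Ccl3 and Ccl4. Of these, 10 were tested, and 7, 5 and 9 were lower than in WT in PIK3CA, HER2 and double mutants and 0 higher. They are the same calls as in the monocyte and eosinophil list above, with the same limit for Ccl4 and Ccl12. Ccl5 and the barely detected Ccl1, which was not tested, were the exceptions in double mutants. In the chromosome 5 cluster of Cxcl5, Cxcl3, Cxcl15, Cxcl1 and Cxcl2, the counts were 0, 1 and 0 lower and 0, 0 and 1 higher.

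**Figure D3:**
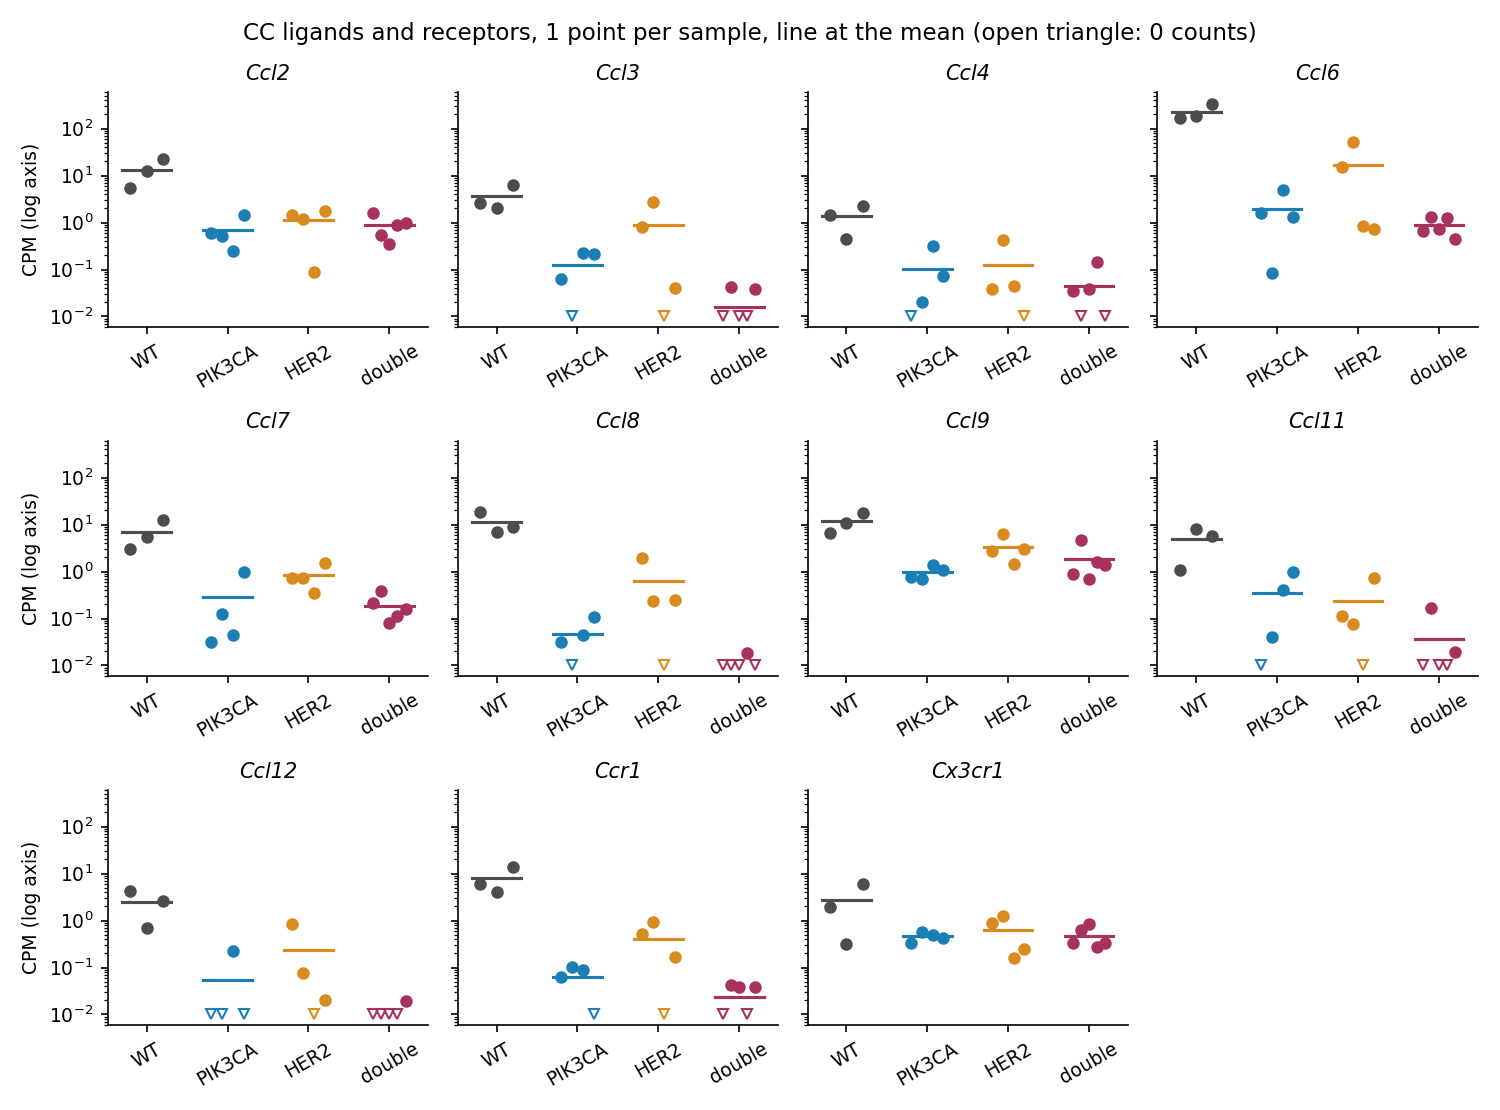
CPM on a log axis for 9 CC ligands and the receptors Ccr1 and Cx3cr1, 1 point per sample with a line at the genotype mean; open triangles at the bottom mark samples with 0 counts. The WT points lie above all PIK3CA and double mutant points for each gene but Cx3cr1, and HER2 mutant points of Ccl6 split into a pair at 15.2 and 51.9 CPM and a pair at 0.823 and 0.716 CPM.

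The lymphocyte-attracting CC ligands held Ccl20 and Ccl25, which with Cxcl1 were the members called higher than in WT. Ccl20 (chr1:83116766-83119167), made by epithelia and the only known chemokine ligand of Ccr6, was at 0.035, 0.08005 and 0 CPM in WT, 0.731, 0.578, 0.133 and 1.38 in PIK3CA mutant, 0.754, 0.193, 2.34 and 1.06 in HER2 mutant and 2.13, 9.96, 2.67, 3.95 and 1.17 in double mutant organoids. WT held 6 counts in all, every mutant sample lay above every WT sample, and the double mutants spread from 1.17 to 9.96 CPM. The log2 fold change was 4.19 ± 1.15 (adjusted p = 0.0507) in PIK3CA, 4.80 ± 1.16 (adjusted p = 0.0171) in HER2 and 6.67 ± 1.19 (adjusted p = 0.00198) in double mutants, the last 2 of which were called. The PIK3CA value passed the threshold with DESeq2 (8.01e-04), with limma (0.028), with no filter (0.0291), on the compared genotypes alone (0.021) and without PIK3CA mutant replicate 3 (0.0389). The HER2 call was lost without WT replicate 1 or 3 (adjusted p up to 0.0918), while the double mutant call held in each of 8 fits that left out 1 sample. The differences between mutants, 1.87 ± 0.75 (adjusted p = 0.199) for double against HER2 and 2.48 ± 0.78 (adjusted p = 0.187) for double against PIK3CA mutants, were not called. Ccr6 itself had 23 counts over all 16 samples.

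Ccl25, the Ccr9 ligand of thymus and gut, was at 16, 15.7 and 15.2 CPM in WT, 14.2, 15.1, 14.6 and 14.3 in PIK3CA mutant, 23.2, 19.2, 24.2 and 23.3 in HER2 mutant and 18.4, 19.9, 25.5, 17.1 and 16.5 in double mutant organoids. HER2 mutant samples lay above all WT and PIK3CA mutant samples, by 1.44-fold and 1.54-fold in the fit (edgeR adjusted p = 0.04004 and 0.0209). The call against WT was lost with no filter (0.117) and on leaving out any sample but HER2 mutant replicate 2 (up to 0.157), and that against PIK3CA mutants on leaving out any PIK3CA mutant sample (up to 0.0668). In the annotation 204 exonic bases of Ccl25 overlap Elavl1 on the other strand, and reads from both genes cannot be told apart because the strand setting of the counting is not given. The Ccr10 ligands were not called: Ccl27a stayed between 2.39 and 6.84 CPM in all samples and has near-identical copies in the annotation, and Ccl28, which draws IgA plasma cells to the lactating gland, stayed at or under 1.02 CPM except for 3.02 CPM in HER2 mutant replicate 1.

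Cx3cl1, the membrane-bound CX3C ligand, was higher in PIK3CA and in double mutants than in HER2 mutants. Cx3cl1 (chr8:94772009-94782427) was at 285, 362 and 257 CPM in WT, 529, 585, 556 and 594 in PIK3CA mutant, 112, 359, 260.4 and 152 in HER2 mutant and 443, 426, 561, 531 and 616 in double mutant organoids. The PIK3CA and double mutants lay above all WT samples and above all HER2 mutant samples, and HER2 and WT samples overlapped. The means were 301 ± 54.2 CPM (SD, n = 3) in WT, 566 ± 29.5 CPM (SD, n = 4) in PIK3CA, 221 ± 112 CPM (SD, n = 4) in HER2 and 515 ± 80.1 CPM (SD, n = 5) in double mutants. Cx3cl1 was called higher in double than in HER2 mutants, with a log2 fold change of 1.22 ± 0.26 (SE, edgeR adjusted p = 0.0239), and lower in HER2 than in PIK3CA mutants, with a log2 fold change of -1.36 ± 0.27 (SE, edgeR adjusted p = 0.012). The first call was lost without HER2 mutant replicate 4 or double mutant replicate 4 or 5 (adjusted p up to 0.0604), and the second held in each of the 8 such fits. On the compared genotypes alone neither call was kept (edgeR adjusted p = 0.147 and 0.0622). With a replicate block the first was also lost (0.0704). Against WT the log2 fold changes of 0.91 ± 0.30 (adjusted p = 0.103) in PIK3CA and 0.78 ± 0.28 (adjusted p = 0.0899) in double mutants did not pass the threshold. With DESeq2 both did (0.0408 and 0.0467), as they did on the compared genotypes alone (0.00257 and 0.0184). The interaction was not called (0.31 ± 0.38, adjusted p = 0.787). Some epithelial and basal markers moved with Cx3cl1. In double against HER2 mutants, 2 of 5 epithelial (Krt8 and Krt19) and 2 of 5 basal markers (Krt5 and Mylk) were higher. Krt19 was higher by 1.34 ± 0.30 (SE, edgeR adjusted p = 0.0306) and Krt5 by 2.73 ± 0.53 (SE, edgeR adjusted p = 0.0152) on the log2 scale. Epcam and Cdh1 were not called there, at -0.05 and 0.25 (edgeR adjusted p = 0.876 and 0.548). In HER2 against PIK3CA mutants, 1 of 5 epithelial (Krt19) and 3 of 5 basal markers (Krt5, Acta2 and Mylk) were lower. Their part in the Cx3cl1 result was not tested. Its neighbours on chromosome 8, Ccl22 and Ccl17, held 26 and 541 counts over all samples.

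**Figure D4:**
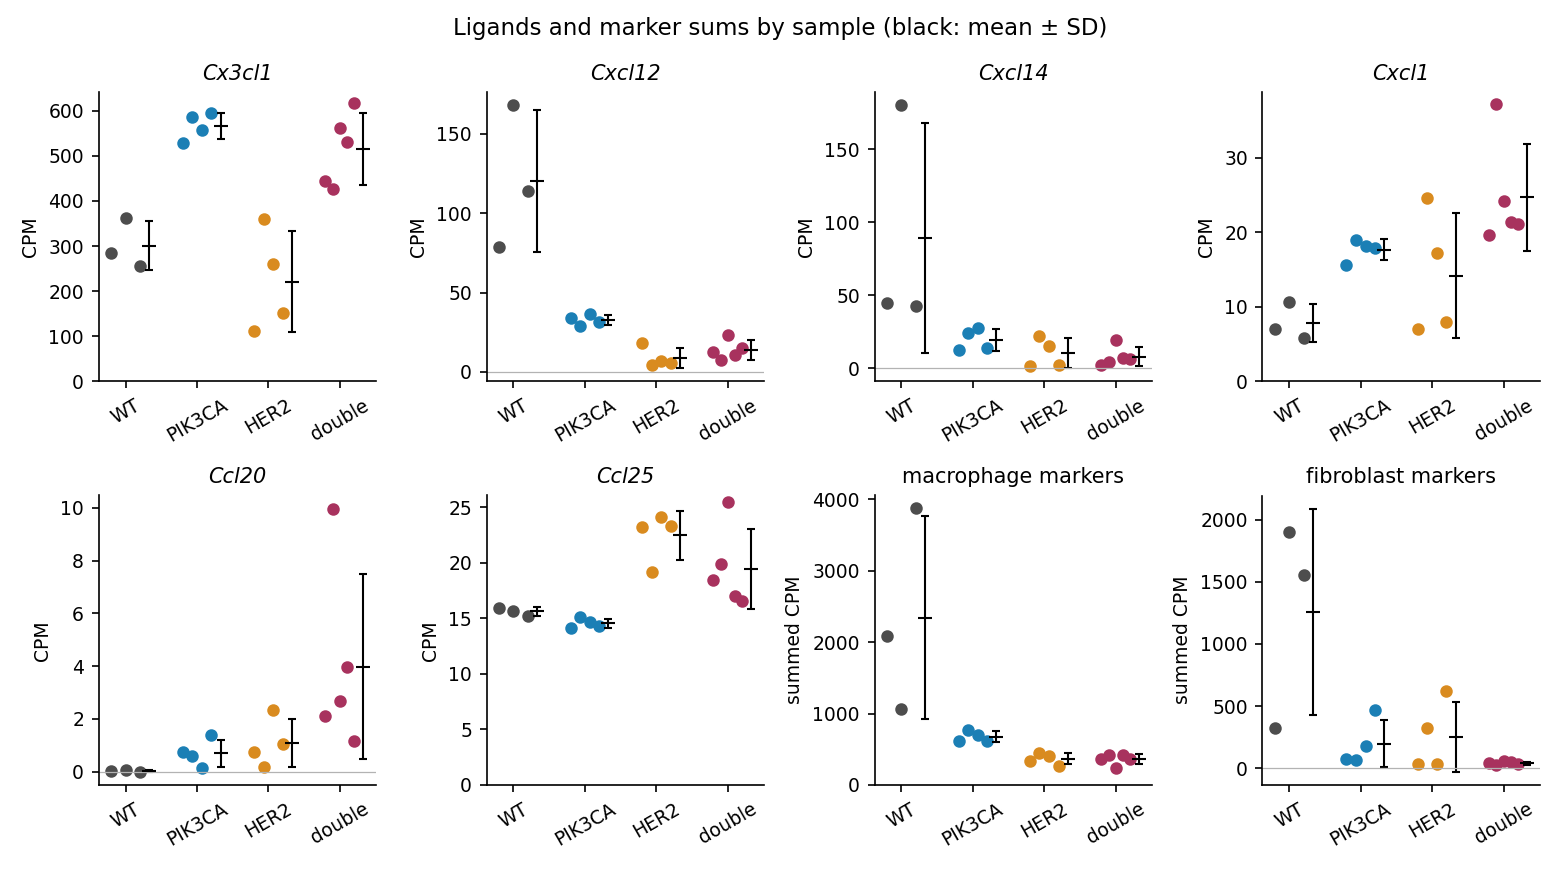
CPM of 6 ligands and the summed CPM of the macrophage and fibroblast markers by genotype, 1 colored point per sample, with the mean ± SD in black. Cx3cl1 lies at 426 to 616 CPM in PIK3CA and double mutants and at 112 to 362 CPM in WT and HER2 mutants, Cxcl12 steps down from WT to PIK3CA mutants to the others, and Ccl20 is near 0 in WT.

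Among receptors, Ccr1 was called lower in all mutant genotypes, though it could be tested only because its WT samples passed the filter, and the CXC receptors were not called in the 16-sample fit. Ccr1 (chr9:123962124-123968692), the receptor of Ccl3, Ccl6 and Ccl9, was at 6.05, 4.1 and 13.9 CPM in WT, 0.0636, 0.103, 0.0886 and 0 in PIK3CA mutant, 0.528, 0.925, 0 and 0.164 in HER2 mutant and 0, 0.042, 0.0393, 0 and 0.0389 in double mutant organoids. Ccr1 was lower in PIK3CA (-6.95 ± 1.03, adjusted p = 0.00135), HER2 (-4.29 ± 0.87, adjusted p = 0.00685) and double mutants (-8.29 ± 1.03, adjusted p = 2.08e-04) than in WT. No mutant sample reached the lowest WT sample, and HER2 mutant replicates 1 and 2 were the highest of the mutants. As with the CC ligands, the macrophage markers given above fell alongside.

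Cx3cr1, the receptor of Cx3cl1 and a gene of tissue macrophages, was at 1.92, 0.32 and 5.89 CPM in WT, 0.334, 0.578, 0.487 and 0.429 in PIK3CA mutant, 0.868, 1.25, 0.156 and 0.246 in HER2 mutant and 0.337, 0.629, 0.824, 0.277 and 0.331 in double mutant organoids. WT samples overlapped all mutant genotypes, WT replicate 3 being the highest and WT replicate 2 among the lower ones. It was called in double mutants at -2.50 ± 0.71 (adjusted p = 0.0313), but not on leaving out any sample other than WT replicate 2 or double mutant replicate 3 (adjusted p up to 0.385), nor with limma on normalized values (0.154). Against WT it was also called with DESeq2 in PIK3CA (0.0144) and HER2 mutants (0.0397), and without WT replicate 2 in both (0.0149 and 0.0289). Ccr2, the receptor of Ccl2, was at 0.175, 0.921 and 2.67 CPM in WT and at most 0.154 CPM in any mutant sample, and it did not pass the filter on low counts.

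Cxcr4, the signalling receptor of Cxcl12, was at 19.3, 18.8 and 21.4 CPM in WT, 57.7, 45.2, 29.2 and 39.4 in PIK3CA mutant, 18.4, 3.08, 1.58 and 47.2 in HER2 mutant and 70.8, 12.9, 17.8, 28.4 and 28.2 in double mutant organoids. HER2 mutants spread from 1.58 to 47.2 CPM, around the WT samples. In PIK3CA mutants all samples were above WT, at 1.11 ± 0.82 (adjusted p = 0.551), a difference called on the compared genotypes alone (0.00845). Cxcr6 stayed between 2.52 and 6.93 CPM in all samples. Ccr9 was at 3.96 to 5.96 CPM in WT, 3.08 to 4.67 in PIK3CA, 3.45 to 7.86 in HER2 and 1.81 to 3.16 in double mutants, with -0.89 ± 0.28 (adjusted p = 0.0513) for double mutants against WT, which passed with DESeq2 (0.0206), limma (0.0472) and the stricter filter (0.0456), although several genes overlap it in the annotation. Ccr10 and Cxcr5 stayed at or under 1.78 CPM but for Cxcr5 in double mutant replicate 3, at 3.34 CPM, and 110 exonic bases of Cxcr5 overlap Bcl9l.

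Of the atypical receptors, Ackr3, which takes up Cxcl12, was at 18.1, 18.6 and 13.8 CPM in WT, 31.4, 28.5, 37 and 30.04 in PIK3CA mutant, 8.77, 28.9, 12.2 and 18.1 in HER2 mutant and 27, 16.6, 8.93, 10.9 and 13.2 in double mutant organoids. PIK3CA mutants lay above the WT and the double mutant samples, yet neither difference was called in the 16-sample fit. The log2 fold change was 0.92 ± 0.38 (adjusted p = 0.222) for PIK3CA mutants against WT and -1.05 ± 0.32 (adjusted p = 0.18) for double against PIK3CA mutants, and the first passed on the compared genotypes alone (0.00362). Ackr4, which removes Ccl19, Ccl21 and Ccl25, ranged from 1.7 to 8.13 CPM over all samples and was not called, and 479 of its exonic bases overlap Acad11.

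**Figure D5:**
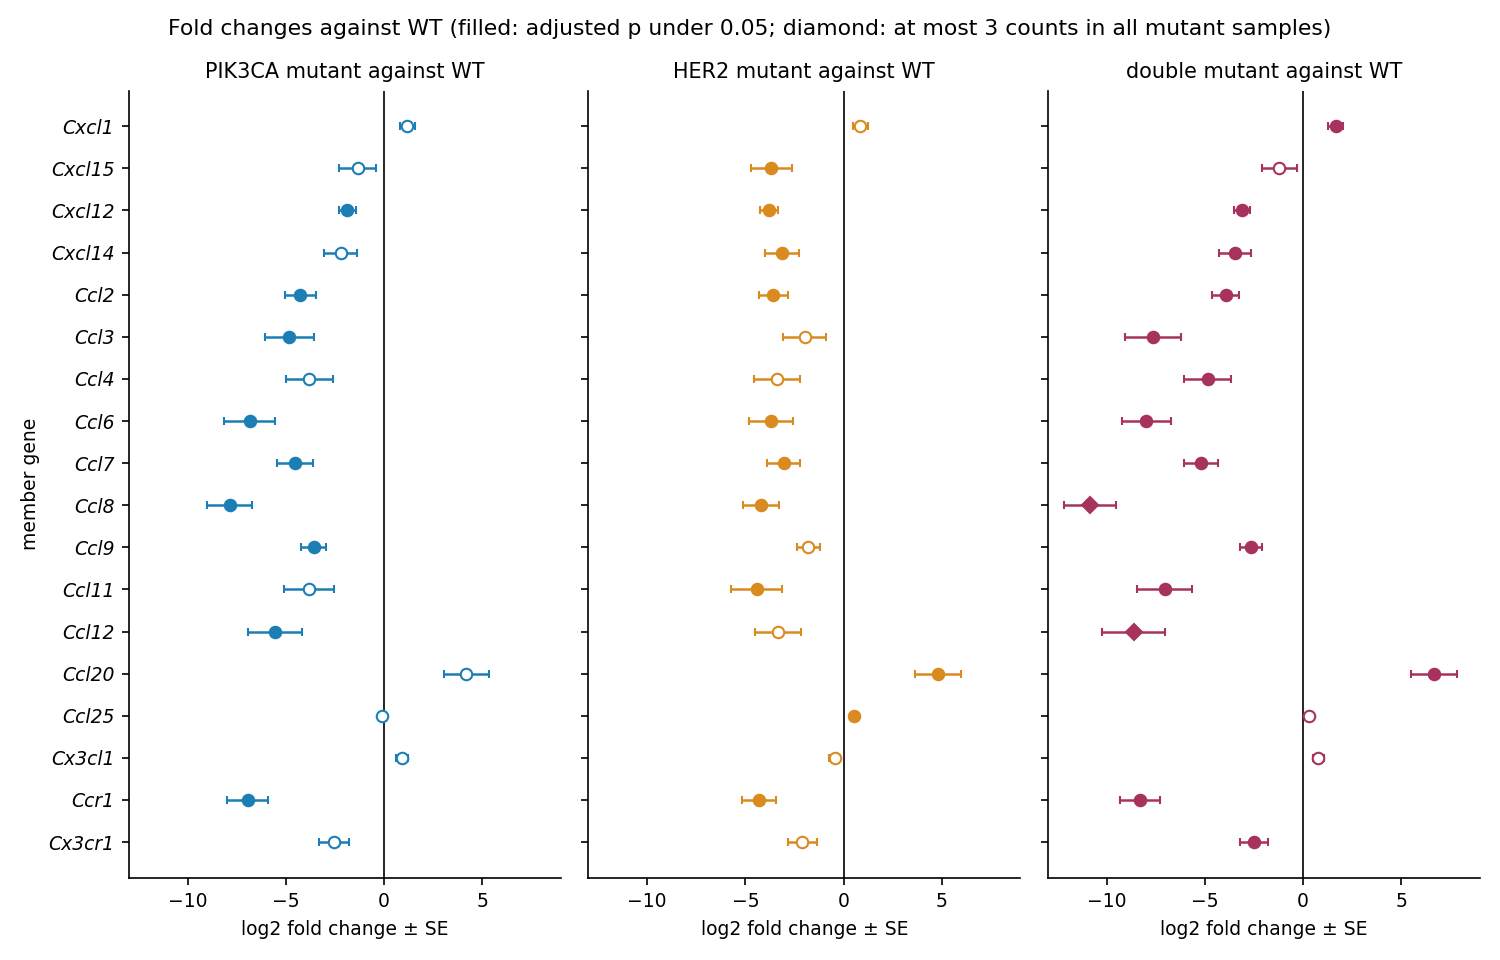
Log2 fold change ± SE of members called in at least 1 comparison and expressed at 1 CPM or more, for each mutant genotype against WT; filled symbols passed the test and diamonds mark Ccl8 and Ccl12 in double mutants, whose fitted values rest on 1 count. Most CC ligands and Ccr1 and Cxcl12 lie left of 0 in all 3 panels, and Ccl20 lies right of 0.

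The comparisons among mutants called few members. Between double and HER2 mutants, 5 of the 65 (7.69%, or 13.2% of the 38 tested) were called, against 2.5% of all genes tested: Ccl3, Ccl6, Ccl8 and Ccr1 were lower and Cx3cl1 was higher in double mutants. Ccl8 had 129 counts in the HER2 and 1 in the double mutants, a pooled ratio of 174 (interval 30.8 to 6942), and for Ccl3 and Ccr1 the log2 fold change was -5.67 ± 1.38 (adjusted p = 0.0436) and -4.002 ± 1.01 (adjusted p = 0.0489). Of the 11 macrophage markers, 6 were lower in the same comparison. Without HER2 mutant replicates 1 and 2, which had the most Adgre1 RNA of the mutants, an alternative chosen after seeing the data, Cx3cl1 alone was called, and Ccl6 was at 0.19 on the log2 scale (adjusted p = 0.959). Leaving out single samples gave 0 to 7 calls, with 0 without double mutant replicate 4 or 5, 1 without replicate 1, 2 without replicate 2 or 3 or HER2 mutant replicate 2, and 3 without HER2 mutant replicate 1: Ccl3, Ccl6 and Ccr1 were lost without HER2 mutant replicate 1 or 2 or any double mutant sample (up to 0.145), and Ccl8 without double mutant replicate 1, 4 or 5 (0.0735).

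Between HER2 and PIK3CA mutants, 3 members were called, 4.62% of the 65 and 7.89% of the 38 tested, against 4.41% of all genes tested: Ccl25 was higher, and Cx3cl1 and Cxcl12 were lower in HER2 mutants. Without HER2 mutant replicate 3, 6 were called. Between double and PIK3CA mutants, 0 members were called by edgeR, against 0.672% of all genes, and DESeq2 called 1, Ccl20. Of the 38 tested, 10 had an unadjusted p under 0.05 by edgeR, against 12.4% of all genes tested. The lowest p-values among these were those of Cxcl12 (-1.24 ± 0.38, adjusted p = 0.177) and Ackr3, given above.

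Other genes of the chemokine system were taken from a list of 47, of which 41 were tested. Against WT, 7 were lower and 4 higher in PIK3CA, 8 lower and 2 higher in HER2, and 10 lower and 5 higher in double mutants, with median log2 fold changes of 0.08, -0.24 and -0.07 against -0.03, 0.03 and 0.01 over all genes. Of 10 effectors of migration, 6, 5 and 7 were lower and 0 higher. Among these were the leukocyte genes Dock2, an activator of Rac, Rac2 itself and Plcb2, a phospholipase C. Dock2 was at -6.83 ± 1.13 (SE, edgeR adjusted p = 0.00236) in PIK3CA, -4.59 ± 1.00 (SE, edgeR adjusted p = 0.0102) in HER2 and -7.25 ± 1.05 (SE, edgeR adjusted p = 4.84e-04) in double mutants on the log2 scale, and Rac2 was at -7.73 ± 1.12 (SE, edgeR adjusted p = 4.78e-04) in double mutants. The platelet chemokine Pf4 was at 0.559, 1.42 and 1.84 CPM in WT and was at 0 in 4 of the 5 double mutant samples. The macrophage markers given above were lower in the same samples, and their part was not tested. Plcb2 had an interaction of 3.99 ± 0.89 (SE, edgeR adjusted p = 0.0443). Arrb1, the arrestin that ends receptor signalling, was lower in double than in PIK3CA mutants (-0.74 ± 0.14, SE, edgeR adjusted p = 0.0256), and Gnai3, an inhibitory G protein subunit, exceeded its HER2 mutant level in double mutants (0.59 ± 0.14, SE, edgeR adjusted p = 0.0364).

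Of 10 NF-kB factors and feedback genes, 0 were lower and 2, 2 and 3 were higher than in WT in PIK3CA, HER2 and double mutants. Over all genes tested, the share called higher was 1.49%, 4.75% and 5.03%. Tnfaip3 was called in all 3 comparisons, Nfkbia with PIK3CA and in double mutants, and Rel with HER2 and in double mutants; they are named here after their values were seen. Tnfaip3, the feedback inhibitor A20, was at 15.2, 19.9 and 15.1 CPM in WT, 48.5, 49.1, 43.4 and 46.5 in PIK3CA, 26.5, 46.1, 53.5 and 38.4 in HER2 and 56.5, 71.1, 76.4, 43.8 and 36.1 in double mutants. Every mutant sample exceeded the highest WT sample, at 1.48 ± 0.26 (SE, edgeR adjusted p = 0.00345), 1.30 ± 0.26 (SE, edgeR adjusted p = 0.00645) and 1.76 ± 0.26 (SE, edgeR adjusted p = 5.36e-04). Nfkbia, which encodes the inhibitor of NF-kB alpha, was at 1.06 ± 0.27 (SE, edgeR adjusted p = 0.0346) in PIK3CA and 1.24 ± 0.26 (SE, edgeR adjusted p = 0.00608) in double mutants. Of 7 inducing cytokines, 3 were tested, and against WT 0 were lower and 0, 0 and 1 higher in PIK3CA, HER2 and double mutants. Their median log2 fold changes were -0.38, -0.46 and -0.71. Among them Tnf, a cytokine that induces Cxcl1 and Ccl20 in epithelia, was at 12.3, 15.5 and 10.6 CPM in WT, 29.99, 29.2, 28 and 25 in PIK3CA, 6.7, 12, 14.5 and 4.01 in HER2 and 27.2, 65.9, 42.9, 19.4 and 25.4 in double mutants. Double mutants had more Tnf than HER2 mutants (1.96 ± 0.38, SE, edgeR adjusted p = 0.0142), and HER2 mutants had less than PIK3CA mutants (-1.59 ± 0.38, SE, edgeR adjusted p = 0.0294). The part of Tnf and of the NF-kB genes in the levels of Cxcl1 and Ccl20 was not tested.

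Of the 65 members, 29 stayed under a mean of 1 CPM in every genotype. The best detected were Ccl17 with 541 counts over all samples, Ccr4 with 155, Cxcl9 with 102 and Ackr2 with 99. Ccl1, Ccl22, Cxcl13, Ccr3, Ccr6, Ccr7, Ccr8, Cxcr1, Cxcr2, Cxcr3, Ackr1, Ccl27b and a second identifier of Ccl27a held 6 to 69 counts. No count was found for Ccl24, Ccl26, Ccl21c, Ccl21d, both identifiers of Ccl19 and of Ccl21a, the 3 of Ccl21b and a further one of Ccl27a, which allows at most 0.0477 to 0.0668 CPM per sample for counting error alone, and reads of the near-identical Ccl19, Ccl21 and Ccl27 copies may not have been counted. Cxcr2, the receptor of the neutrophil-attracting ligands, held 69 counts and Cxcr3, that of Cxcl10, held 13 counts over all samples.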

How the data were processed

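Column-purified total RNA was converted to libraries with a SMARTer mRNA kit, per the labels' protocols. Reads were processed by the authors with bcl2fastq 2.20, STAR 2.0.4b, Subread featureCounts 1.4.5 and DESeq2 1.33.5 on mm10, per the submitters' processing notes; the strand setting is not given in the sources used here. The deposited table holds raw counts per gene in 55774 rows, of which 287 repeats of an identifier were dropped. The deposited normalized signal equals the count divided by a DESeq2 size factor (largest relative difference 5.49e-10) and was used only for the limma alternative. Counts of 1 to 10 were even in 63.5% of cases, against 50.1% for counts of 101 to 1000, so low counts are less precise than their number implies.

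The main test was edgeR 4.0.16 (R 4.3.3) quasi-likelihood with TMM scaling and one term per genotype over all 16 samples, 7 contrasts, on the 24252 genes that passed filterByExpr, two-sided, with Benjamini-Hochberg adjustment over those genes. SE is the log2 fold change divided by the square root of F. Intervals cover counting error only. The script was tested on simulated data with 200 changed genes. Members, lists and the named-gene rule (members called with a mean of at least 1 CPM in full, other expressed members as ranges, and at most 3 signalling genes per contrast) were chosen with earlier results of these data known. Alternatives were RLE and upper-quartile scaling, DESeq2 1.42.0, limma 3.58.1 with a pseudocount of 1, no filter, a stricter filter (1 CPM in 3 samples), a replicate block, the compared genotypes alone and leaving out each sample. Counts over the 65 members cover all of them, and results for some single genes are not reported here.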

Additional observations from a re-analysis of the deposited data

Results flagged for a closer look

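Among 108 groups of 4 or 5 samples (36 members in 3 mutant genotypes), 19 held a single sample far from the others by Dixon's ratio; chance flags about 1 in 20 groups. In HER2 mutant replicate 1 these were Ccl28 at 3.02 CPM, Ccl12 at 0.849, Ccl8 at 1.98 and Cxcl12 at 18.2 CPM. In HER2 mutant replicate 2 they were Ccl4 at 0.424 and Cxcl3 at 4.72 CPM, and in replicate 4 Ccl11 at 0.737 and Ccl5 at 2.58 CPM. In PIK3CA mutants, Ccl12 stood out at 0.221 CPM in replicate 3 and Ccl7 at 0.965 CPM in replicate 4. Among double mutants, replicate 2 stood out for Ccl11 (0.168 CPM), Ccl9 (4.78 CPM) and Cxcl1 (37.2 CPM), and replicate 3 for Cxcl14 (19.5 CPM) and Cxcr5 (3.34 CPM). Cxcr4 stood out in double mutant replicate 1 at 70.8 CPM, and Ccl4 in replicate 4 at 0.148 CPM. The values of Ccl8 in double mutant replicate 4 (0.0185 CPM) and Ccl12 in replicate 5 (0.0194 CPM) are 1 count each in a group otherwise at 0.

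Cxcl12 had an interaction of 2.54 on the log2 scale by edgeR, a call lost in 14 of 16 fits that left out 1 sample. Since WT alone was labelled normal tissue, an interaction of the 2 mutations and a change shared by all tumor organoids cannot be told apart.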

How the results depend on the processing

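The count of members called against WT moved with the samples fitted: on the compared genotypes alone it was 21 in place of 10 in PIK3CA mutants and 1 in place of 12 in HER2 mutants. Leaving out 1 sample gave 6 to 10 calls in PIK3CA, 3 to 13 in HER2 and 13 to 16 in double mutants. For double against HER2 mutants, in place of 5 calls, there were 0 with a replicate block, 0 on the compared genotypes alone, 1 with limma, 1 without HER2 mutant replicates 1 and 2 (chosen after seeing the data) and 0 to 7 on leaving out 1 sample. In that alternative the sign of Ccl6 reversed, to 0.19. For double against PIK3CA mutants, in place of 0, there was 1 on the compared genotypes alone, 1 with DESeq2 and 0 on leaving out 1 sample. For HER2 against PIK3CA mutants, in place of 3, there was 1 on the compared genotypes alone, 8 with DESeq2 and 2 to 6 on leaving out 1 sample. For the interaction, in place of 1, there were 0 with RLE, upper-quartile scaling or a replicate block, 2 with no filter, 4 with DESeq2, 3 without HER2 mutant replicates 1 and 2 and 0 to 1 on leaving out 1 sample. The share of all genes called in each of these fits is not given here, and the cause of these moves was not tested.

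Of the calls of single members, 108 of 367 were lost on leaving out 1 sample and 0 of 44 under the stricter filter. Replicate numbers were not taken to pair the samples, since no pair of genotypes had every correlation of same-numbered deviations above 0.1. The same-numbered sample correlated best in 9 of 42 cases. For HER2 and double mutants, all 4 same-numbered correlations were positive, at 0.083 to 0.362. Their mean was 0.216, against -0.057 for other pairs, and whether those samples shared a batch is not given. With the replicate block, 8, 8 and 14 members were called in PIK3CA, HER2 and double mutants against WT. Members with few counts, such as Ccl8 and Ccl12 in mutants, have ratios limited by counting error.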
